A study of Rattus norvegicus with 6 samples.

Results

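The proteasome genes measured in the left ventricle of diabetic and normal rats were taken as all probe sets whose single annotated symbol starts with Psm, a letter from a to g, and a digit. The rule found 46 probe sets for 43 genes, out of 10411 genes named by the array's single-gene probe sets, and the probe set with the highest mean signal over the 6 arrays stood for each gene. Of the 43 genes, 41 encode subunits, activators, an inhibitor or assembly chaperones, and 2 (Psmc3ip and Psme3ip1) carry a matching symbol but encode no subunit. Another 6 probe sets, which name Psma3, Psmb6 or Psme3 together with other genes, were left out because their signal cannot be assigned to 1 gene. No single-gene probe set stood for Psma8, Psmb6, Psmb11, Psmc6, Psmd12, Psmd14 or Psme3, which were not analysed here.

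The animals were 3 rats labelled diabetic and 3 labelled normal, with total RNA of the left ventricle of each hybridised to 1 single-colour Affymetrix array. The labels say nothing of how diabetes arose or how long it lasted, nor of strain, sex, age or treatment, and name no pooling. The values are signal intensities on a linear scale, deposited at a common level on all arrays (trimmed mean 500.2), and the number of arrays limits their precision. The ventricular muscle markers were bright, with the summed signal of 6 of them between 150623 and 193267 in diabetic hearts and between 167546 and 206976 in normal hearts. All 7 T and NK cell markers lay below the brightness filter used for testing. Because the samples are whole tissue, fewer cells of a type and less RNA per cell cannot be told apart.

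The proteasome degrades proteins tagged with ubiquitin. Its 20S core is a barrel of alpha rings, which gate the entry, and beta rings, which hold the proteolytic sites. The 19S regulatory particle binds ubiquitin, unfolds the substrate with a ring of ATPases and feeds it into the core. Under interferon, the inducible subunits Psmb8, Psmb9 and Psmb10 replace the constitutive catalytic ones, which gives the immunoproteasome, and the activator Psme1-Psme2 can cap the core in place of the 19S particle. In heart muscle this system removes damaged and surplus proteins, contractile proteins included.

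Transcripts of the proteasome differed little between diabetic and normal ventricles. Of the 43 genes, 1 rose (Psmd5, an assembly chaperone of the 19S particle) and none fell, by limma on log2(signal + 16) with an adjusted p under 0.05 over all tested probe sets. That is 2.33% of the family, beside 2.88% of the 9519 tested probe sets, of which 1.5% rose and 1.38% fell. At an adjusted p under 0.1, 2 genes passed (Psmd5 and Psmd8, 4.65% of the family), beside 7.08% of tested probe sets. All 43 genes lay above the brightness filter. Without adjustment, limma's p was under 0.05 for 2 genes that were higher and 4 that were lower in diabetic hearts, beside 9.54% and 10.3% of tested probe sets. The median log2 fold change of the family, diabetic minus normal, was -0.09, against -0.01 for all tested probe sets. It stayed negative with any 1 array left out, between -0.12 without normal 1 and -0.05 without normal 2.

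The differences were also small in size. The median absolute log2 fold change was 0.12 in the family and 0.20 over all tested probe sets. For 38 of 43 genes it was under 0.4, and the 5 others were Psmd8, Psmd5, Psmb2, Psmd13 and Psmc5. The standard errors ran from 0.13 to 0.30 on the log2 scale in the family, and from 0.13 to 0.99 over all tested probe sets. The part of this noise in the contrast of the medians was not tested. The 95% interval of the log2 difference lay wholly between -1 and 1 for 42 of 43 genes, so that a 2-fold difference fell outside it, and between -0.5 and 0.5 for 26. The gene whose interval reached past 1 was Psmd8. These intervals are limma's for single genes and are not adjusted for the number of genes.

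**Figure D1:**
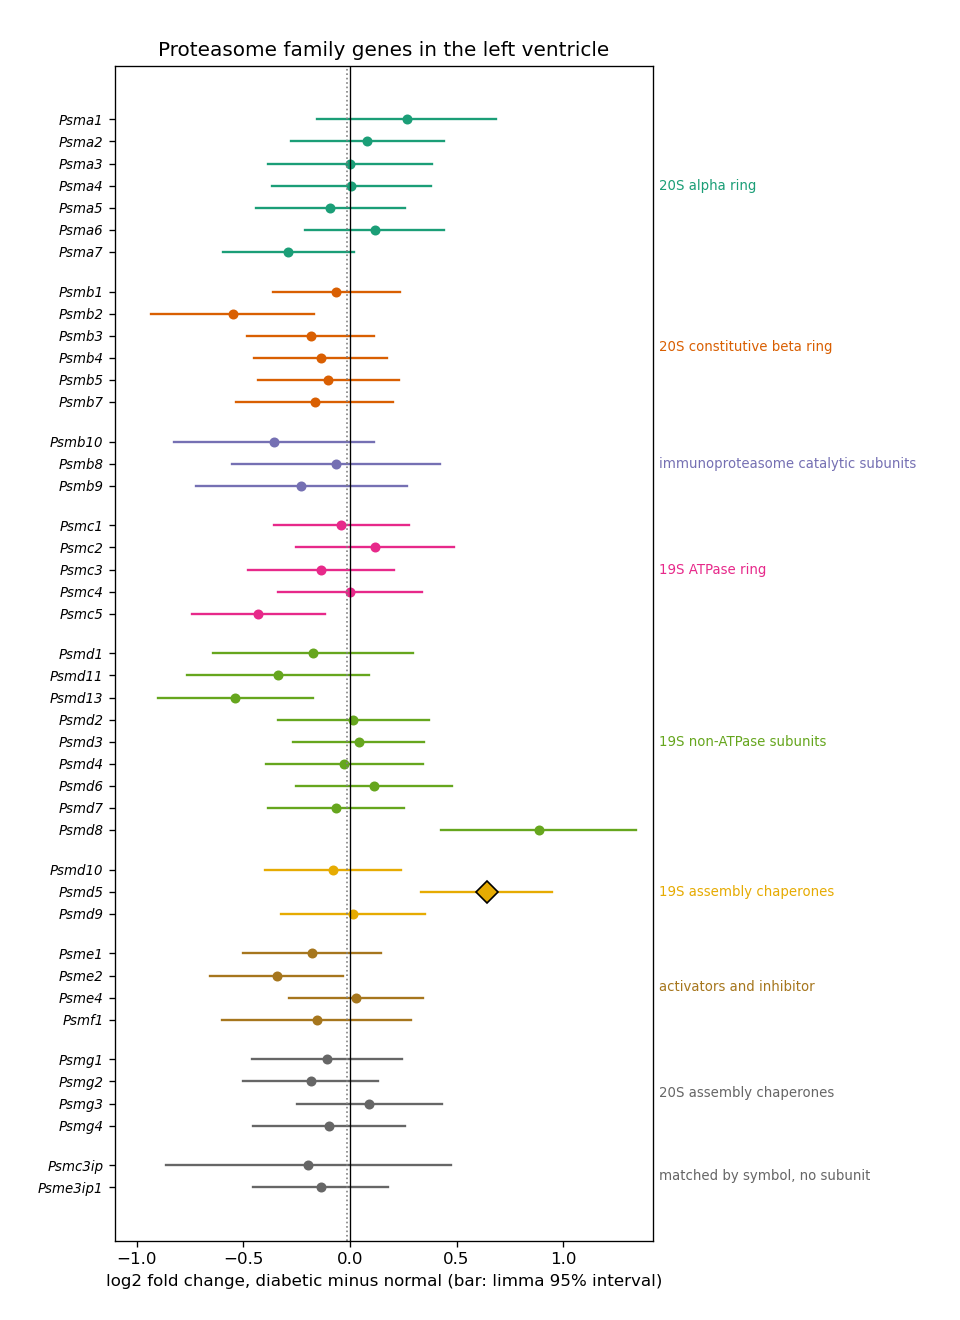
Log2 fold change (diabetic minus normal) of the 43 proteasome family genes on the horizontal axis, grouped by part of the complex. Bars are limma's 95% intervals, the diamond marks the 1 gene with an adjusted p under 0.05 (Psmd5, at 0.64), and the dotted line marks the median of all tested probe sets (-0.01).

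Psmd5, which helps to assemble the ATPase base of the 19S particle and is not part of the finished enzyme, rose in diabetic ventricles. Its signal was 756.7, 831.3 and 835.4 in diabetic hearts 1 to 3, against 526.9, 495.3 and 513 in normal hearts 1 to 3. The groups lay well apart, the lowest diabetic heart standing above the highest normal one. The means were 808 ± 44.3 in diabetic and 512 ± 15.8 in normal hearts (SD, n = 3 each), a ratio of 1.58, and the log2 fold change was 0.64 ± 0.14 (SE, limma adjusted p = 0.0436). The value stayed at 0.62 to 0.69 with any 1 array left out, but in each of these smaller fits the adjusted p was above 0.05 (0.0657 without diabetic 1 to 0.131 without normal 3), and without the brightness filter it was 0.167. The other chaperones of the 19S base did not pass: Psmd9 and Psmd10 lay within 0.1 of 0 on the log2 scale.

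Psmd8, a lid subunit of the 19S particle, had the highest log2 fold change of the family and narrowly missed the threshold. Its signal was 1811, 2842.1 and 2777 in diabetic hearts 1 to 3, against 1346.7, 1442.7 and 1145.9 in normal hearts 1 to 3. Diabetic 1 was much closer to the normal hearts than the other diabetic hearts were, though the groups did not overlap. The means were 2477 ± 577 in diabetic and 1312 ± 151 in normal hearts (SD, n = 3 each), a ratio of 1.89, and on the log2 scale the difference was 0.89 ± 0.20 (SE; adjusted p = 0.055 by limma). Without diabetic 1 the log2 fold change was 1.10 and passed (limma adjusted p = 0.024), and with any 1 of the other arrays left out it ran from 0.77 to 0.96 and did not. Over its alternatives the adjusted p ran from 0.0147 to 0.212. Psmd5 and Psmd8 were the only family genes higher in every diabetic heart than in every normal heart, which is 4.65% of the family, beside 12.1% of tested probe sets.

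The promoters of the highest genes, Psmd5 and Psmd8, and of the lowest, Psmb2, are shown so that the response elements known for this family can be looked for at both ends of its range. Each sequence is the 250 bases before the annotated start on the gene's own strand, from RefSeq (GRCr8): Psmd5 at chr3:38548491-38548740 (minus strand), Psmd8 at chr1:93608690-93608939 (minus strand) and Psmb2 at chr5:144254808-144255057 (plus strand). Capitals mark matches on either strand to TGACNNNGC (the core of the antioxidant response element, bound by Nfe2l1 and Nfe2l2 with a small Maf protein), to CCAAT or to GGGCGG (the GC box).
Psmd5: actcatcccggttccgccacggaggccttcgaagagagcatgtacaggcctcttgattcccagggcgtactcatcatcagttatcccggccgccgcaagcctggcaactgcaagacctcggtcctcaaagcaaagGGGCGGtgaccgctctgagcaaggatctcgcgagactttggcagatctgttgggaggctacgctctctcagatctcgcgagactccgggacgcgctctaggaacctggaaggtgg
Psmd8: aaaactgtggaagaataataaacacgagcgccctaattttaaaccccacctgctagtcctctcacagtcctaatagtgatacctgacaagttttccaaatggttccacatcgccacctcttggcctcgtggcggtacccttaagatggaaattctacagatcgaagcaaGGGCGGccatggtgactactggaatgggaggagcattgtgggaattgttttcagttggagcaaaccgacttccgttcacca
Psmb2: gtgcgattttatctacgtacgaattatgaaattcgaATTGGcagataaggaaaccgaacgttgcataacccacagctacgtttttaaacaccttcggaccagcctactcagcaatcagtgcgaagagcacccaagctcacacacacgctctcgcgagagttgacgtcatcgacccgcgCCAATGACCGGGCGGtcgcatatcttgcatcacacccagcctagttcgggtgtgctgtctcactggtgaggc
Psmd5 and Psmd8 each held 1 GC box and no match to the other elements in this window. Psmb2 held CCAAT on both strands, and its plus-strand copy ran on into TGACNNNGC and then a GC box, each sharing bases with the next. Promoter sequences matched 39 of the 41 genes that encode proteasome components. TGACNNNGC was found in 6 of those 39 promoters (15.4%), among them Psmb2, Psmb5 and Psma3, and in 10.2% of all 27457 promoters of this length. GGGCGG stood in 27 (69.2%), beside 32.4% of all promoters, and CCAAT in 19 (48.7%), beside 34.3%. The comparison was with all promoters, not with those of equally bright genes. These matches describe letters, not binding.

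**Figure D2:**
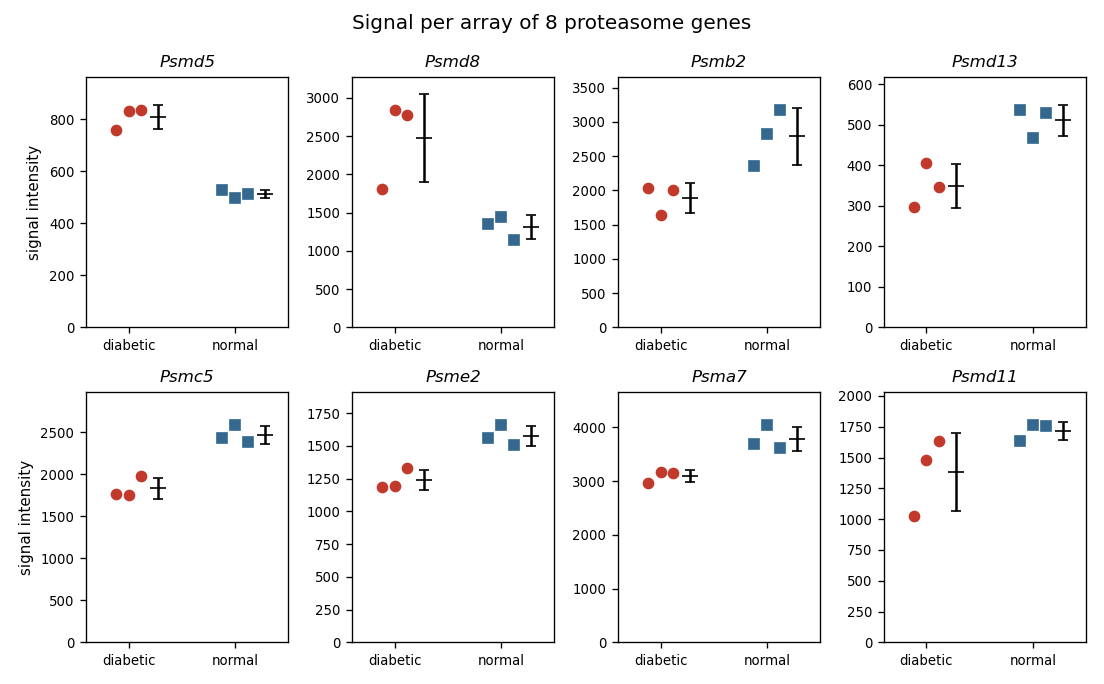
Signal intensity (linear axis from 0) of 8 proteasome genes in each array, with diabetic hearts as circles, normal hearts as squares, and mean and SD in black (n = 3 each). Psmd5 and Psmd8 are higher in every diabetic heart, while Psmb2, Psmd13, Psmc5, Psme2 and Psma7 are lower in every diabetic heart, and the groups overlap at Psmd11.

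Among the constitutive beta subunits of the core, all 6 genes measured had negative log2 fold changes, with a median of -0.15 and none past the threshold. The 6 ventricular muscle markers measured were all negative too, with a median of -0.15 and none past the threshold, and Mybpc3 was lower in every diabetic heart. Their part in the beta subunit values was not tested. The groups did not overlap, diabetic below normal, at 4 of the 6 (Psmb1, Psmb2, Psmb3 and Psmb4), where 13.6% of tested probe sets showed such a gap. The lowest value belonged to Psmb2, a non-catalytic beta subunit. Its signal was 2035.6, 1643.5 and 2000.8 in diabetic hearts 1 to 3, against 2356.3, 2829.5 and 3175.3 in normal hearts 1 to 3. Every diabetic heart lay below every normal heart, with a wider spread in the normal group. The ratio of means was 0.679 and the log2 fold change -0.55 ± 0.17 (SE, limma adjusted p = 0.115). Over the alternatives its adjusted p ran from 0.0494, with an intensity trend, to 0.307.

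The other non-catalytic beta subunits had smaller log2 fold changes than Psmb2. Psmb3 had 1908.7, 1868.4 and 1922.7 in diabetic hearts, against 2157.3, 2205.7 and 2115 in normal hearts. Its hearts differed by little within either group, and its log2 fold change was -0.18 (limma adjusted p = 0.488). Psmb4 stood at -0.14 and Psmb1 at -0.06 on the same scale, with adjusted p of 0.633 and 0.844. Psmb5 carries the chymotrypsin-like site and had 5140.4, 5356.5 and 5029.1 in diabetic hearts, against 6125.6, 4896.3 and 5691.8 in normal hearts. The groups overlapped through normal 2 (log2 fold change -0.10 ± 0.15, limma adjusted p = 0.762). Psmb7 carries the trypsin-like site and had 4374.4, 4037.3 and 4892.2 in diabetic hearts, against 5042.5, 5685.7 and 4253.4 in normal hearts. Normal 3 lay within the diabetic range there, and the log2 fold change was -0.17 ± 0.16 (limma adjusted p = 0.626).

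The alpha subunits did not move one way. Of 7 measured, 5 had positive and 2 negative log2 fold changes, with a median of 0.01, and none passed. Psma1 was at the upper end, with 1587.5, 2148.2 and 2070.5 in diabetic hearts, against 1936.3, 1391.9 and 1494.8 in normal hearts, which overlapped (log2 fold change 0.27, limma adjusted p = 0.47). Psma7 was at the lower end, with 2965.4, 3173.7 and 3145.1 in diabetic hearts, against 3687.1, 4049.1 and 3621.9 in normal hearts. It was the only alpha subunit whose groups did not overlap (log2 fold change -0.29 ± 0.14, limma adjusted p = 0.283). Psma2 to Psma6 lay between -0.09 and 0.12. The single-gene probe set for Psma3 may share signal with its close copy Psma3l.

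**Figure D3:**
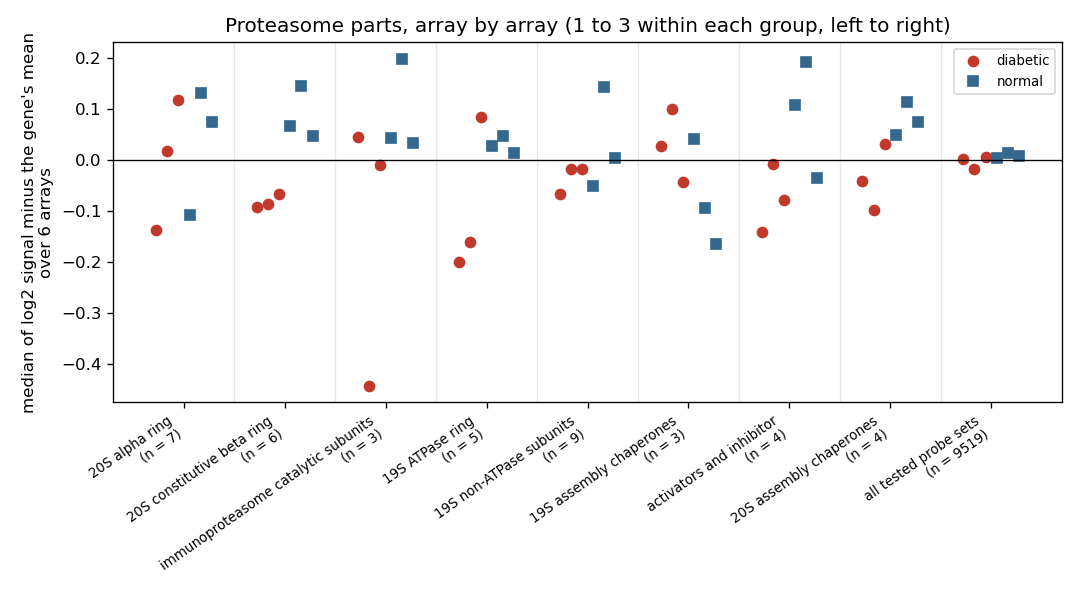
For each array, the median over the genes of a part of the log2 signal minus that gene's mean over the 6 arrays, with diabetic hearts as circles and normal hearts as squares (replicates 1 to 3 from left to right). The constitutive beta subunits lie at -0.09 to -0.07 in the diabetic hearts and at 0.05 to 0.15 in the normal hearts, while the alpha subunits overlap between the groups.

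Set array by array, the beta subunits were the more uniform part of the core. Their median deviation from each gene's own mean was -0.09, -0.09 and -0.07 in diabetic hearts 1 to 3, against 0.07, 0.15 and 0.05 in normal hearts 1 to 3. The alpha subunits gave -0.14, 0.02 and 0.12 in diabetic hearts, against -0.11, 0.13 and 0.08 in normal hearts. In that ring replicate 1 was the lowest of either group. Over the whole family, normal 2 was the highest of its group for 25 of 43 genes and diabetic 3 the highest of its group for 18. The difference between the beta and alpha parts was not tested.

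In the 19S particle, 14 subunit genes were measured, 5 of the ATPase ring and 9 others, and none passed. Apart from Psmd8, the subunits farthest from 0 were lower in diabetic hearts. Psmd13, a lid subunit, had 297.1, 405.7 and 345.6 in diabetic hearts, against 537, 467 and 529.8 in normal hearts. Diabetic 2 came closest to the normal hearts, and the groups did not overlap. The ratio of means was 0.684 and the log2 fold change -0.54 ± 0.16 (SE, limma adjusted p = 0.108). Psmc5, one of the ATPases that unfold substrates, had 1761.6, 1751.1 and 1979.1 in diabetic hearts, against 2434, 2587.8 and 2382.4 in normal hearts. The gap between its groups was larger than the range of either group (ratio of means 0.742, log2 fold change -0.43 ± 0.14, limma adjusted p = 0.13). The other 4 ATPases, Psmc1 to Psmc4, lay between -0.13 and 0.12 and overlapped between groups.

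Psmd11, a lid subunit that clamps the 19S particle to the core, was read by a pair of probe sets that pointed in opposite directions. The brighter one had 1029.1, 1483.8 and 1635.3 in diabetic hearts, against 1632.4, 1765.5 and 1754.5 in normal hearts (log2 fold change -0.34 ± 0.19, limma adjusted p = 0.366). The dimmer one had 1675.7, 1340.1 and 1147.2 in diabetic hearts, against 1158.4, 1127.2 and 1149.1 in normal hearts (log2 fold change 0.26 ± 0.17, limma adjusted p = 0.438). At both, diabetic 1 was the heart farthest from the normal ones, low on the first probe set and high on the second, and without it the brighter one stood at -0.14. The other 6 non-ATPase subunits ran from -0.17 to 0.11, among them the ubiquitin receptor Psmd4, the scaffold subunits Psmd1 and Psmd2, and Psmd7, the partner of the deubiquitinating subunit.

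None of the 3 inducible subunits of the immunoproteasome passed in either direction. Psmb8, the inducible counterpart of Psmb5, had 422.9, 231.6 and 311 in diabetic hearts, against 290.4, 370.3 and 328.6 in normal hearts. Diabetic 1 was the highest and diabetic 2 the lowest of all 6 hearts, and the log2 fold change was -0.07 ± 0.22 (limma adjusted p = 0.905). It had the opposite sign without diabetic 2 (0.14) or without normal 2 (0.02). Psmb9 had 461.9, 331.6 and 461.2 in diabetic hearts, against 580.2, 357.7 and 555.2 in normal hearts. Replicate 2 was the lowest of either group, and the log2 fold change was -0.23 ± 0.22 (limma adjusted p = 0.617). Psmb10 had 382.4, 243.8 and 367.6 in diabetic hearts, against 381.5, 512.9 and 378.7 in normal hearts. Its groups overlapped through diabetic 1, and the log2 fold change was -0.35 ± 0.21 (limma adjusted p = 0.384). Without diabetic 2 the log2 fold change of Psmb9 was -0.07 and that of Psmb10 -0.16. For these 3 genes diabetic 2 was the lowest heart of all, and the lower end of each 95% interval lay below -0.5 on the log2 scale (-0.55 for Psmb8, -0.72 for Psmb9 and -0.82 for Psmb10).

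Of the activators, the interferon-inducible pair Psme1 and Psme2 had lower means in diabetic hearts. Psme2 had 1190.2, 1197.5 and 1331.8 in diabetic hearts, against 1558.1, 1661.3 and 1506.8 in normal hearts, with no overlap (ratio of means 0.787, log2 fold change -0.34 ± 0.14, limma adjusted p = 0.209). Psme1, its partner, had 7256.1, 8587.2 and 7157.6 in diabetic hearts, against 8399.4, 8950.6 and 8578 in normal hearts. Diabetic 2 reached the normal range, and the log2 fold change was -0.18 ± 0.14 (limma adjusted p = 0.546). Psme4, a single-chain activator, was at 0.03 on its brightest probe set and at -0.14 and 0.08 on the others. Psmf1, an inhibitor of the core in vitro, had a mean signal of 342 ± 11.5 in diabetic and 391 ± 103 in normal hearts (SD, n = 3 each). The 4 chaperones that build the core (Psmg1 to Psmg4) lay between -0.18 and 0.09, and Psmg2, at the lower end, was below the normal range in every diabetic heart (limma adjusted p = 0.513). The 2 genes that match only by symbol, Psmc3ip (a recombination factor) and Psme3ip1 (a binding partner of Psme3), lay between -0.20 and -0.14 and overlapped between groups.

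Counting all 43 genes, 9 were lower in every diabetic heart than in every normal heart (20.9%, against the 13.6% of tested probe sets given above). They were Psma7, Psmb1, Psmb2, Psmb3, Psmb4, Psmc5, Psmd13, Psme2 and Psmg2, and none of them passed the threshold. With 3 against 3 hearts an exact permutation test of a single gene cannot go below p = 0.1, so calls rest on limma's shared estimate of spread.

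**Figure D4:**
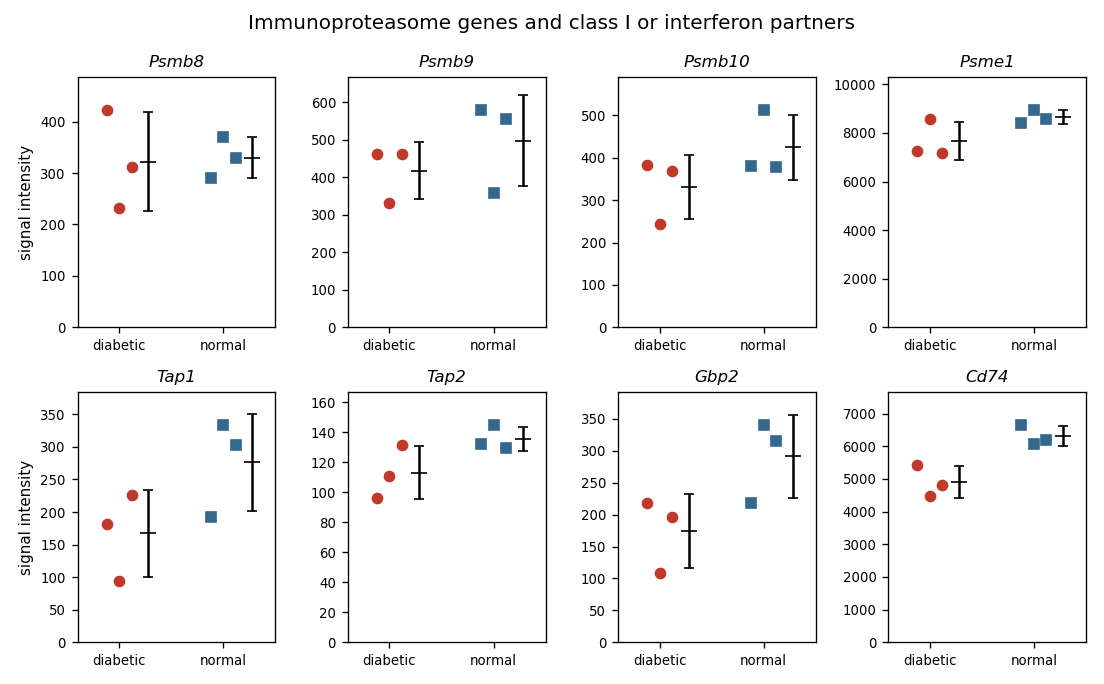
Signal intensity (linear axis from 0) per array of the inducible subunits Psmb8, Psmb9 and Psmb10, the activator gene Psme1, and 4 genes of antigen presentation or the interferon response, with diabetic hearts as circles, normal hearts as squares, and mean and SD in black (n = 3 each). Cd74 is lower in every diabetic heart, and the groups overlap at the other 7 genes.

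Genes that work with the immunoproteasome in antigen presentation were looked at beside it. Psmb8 and Psmb9 lie next to the peptide transporter genes Tap1 and Tap2 in the rat genome, in the major histocompatibility region. Of 10 measured genes of antigen presentation or the interferon response, none passed, and their median log2 fold change was -0.21. Without adjustment, limma's p was under 0.05 for 3 of them, all lower in diabetic hearts (Gbp2, Tap1 and Cd74), beside 10.3% of tested probe sets that were lower at that p. The other direction was held by 3 genes (B2m at 0.24, Irf1 at 0.22 and RT1-CE5 at 0.04). Tap1 had 181, 94.5 and 225.8 in diabetic hearts, against 192.1, 333.9 and 303.6 in normal hearts (log2 fold change -0.71 ± 0.30, limma adjusted p = 0.23). Gbp2, an interferon-induced GTPase, had 217.9, 108 and 196.9 in diabetic hearts, against 217.9, 340.7 and 315.1 in normal hearts (log2 fold change -0.72 ± 0.26, limma adjusted p = 0.17). At both genes diabetic 2 was the lowest heart, as it was for Psmb8, Psmb9 and Psmb10, and without it the log2 fold changes were -0.39 for Tap1 and -0.44 for Gbp2. Cd74, the invariant chain of class II presentation, was lower in every diabetic heart (log2 fold change -0.36, limma adjusted p = 0.203).

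The leukocyte markers, which bear on the same genes, gave no call. Of 14 in the list, 13 were found and 11 were tested, 8 with positive and 3 with negative log2 fold changes, and none passed. Without adjustment limma's p was under 0.05 for 2 of the 11, both lower in diabetic hearts. Of tested probe sets, 10.3% were lower at that p. The genes were Fcer1g (-0.47 on the log2 scale, limma adjusted p = 0.223) and Cd74, which was already counted among the antigen presentation genes above. Lyz2, the lysozyme of macrophages, had a log2 fold change of 0.35 (limma adjusted p = 0.44). The summed signal of those found was 10393 to 13730.2 in diabetic hearts and 11326 to 13238 in normal hearts. Cd74 and Lyz2, the brightest of them, weigh most in this sum and differed in opposite directions. The mean of Cd74 was 4907 in diabetic and 6305 in normal hearts, and that of Lyz2 was 3520 in diabetic and 2723 in normal hearts. Ptprc, the pan-leukocyte marker, lay below the brightness filter. Of 5 fibroblast markers 3 fell (Col1a1, Col1a2 and Lum), beside 1.38% of tested probe sets. Dcn, the brightest of them, stood at -0.01 and Pdgfra at -0.24 on the log2 scale, and neither passed. The summed signal of the 5 was 17586 to 19186 in diabetic hearts and 22249 to 25582 in normal hearts. The call for Col1a1 was lost without normal 1 (adjusted p = 0.0536 by limma), without normal 3 (0.0704) and without diabetic 3 (0.0517). Without the brightness filter all 3 missed the threshold, at 0.117 for Col1a1, 0.0679 for Col1a2 and 0.0688 for Lum. Of 4 endothelial markers 1 fell (Tie1, log2 fold change -0.94, limma adjusted p = 0.0222; the call was lost on leaving out diabetic 2, diabetic 3, normal 2 or normal 3, with adjusted p up to 0.0811, and without the brightness filter, with adjusted p = 0.125). Pecam1 pointed the other way, with 819.6, 966.8 and 898.9 in diabetic hearts, against 816.7, 443.1 and 458.7 in normal hearts. It did not pass (log2 fold change 0.68, adjusted p = 0.147 by limma). The 4 markers had summed signals of 4004 to 4637 in diabetic and 3974 to 4751 in normal hearts. The part of these cells in the proteasome values was not tested.

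Outside the family, 1 of 7 measured regulators of proteasome transcription rose and none fell, beside 1.5% and 1.38% of tested probe sets. It was Mafk, a small Maf protein that pairs with Nfe2l1 and Nfe2l2 on antioxidant response elements. Its signal was 1204.2, 1671.2 and 1078.3 in diabetic hearts, against 780.2, 601.4 and 524.5 in normal hearts, so that every diabetic heart was above every normal one. The log2 fold change was 1.03 ± 0.21 (SE, limma adjusted p = 0.0396), and it missed the threshold without the brightness filter (0.179) and with any 1 array left out other than normal 1 (highest adjusted p 0.132, without normal 3). Nfe2l2, named here after its values were seen, had 997.9, 1039.5 and 1251.9 in diabetic hearts, against 724.6, 836.3 and 652.6 in normal hearts. The groups did not overlap, but the gene did not pass (log2 fold change 0.56 ± 0.16, limma adjusted p = 0.0987). Mafk and Nfe2l2 were the only regulators higher in every diabetic heart, 28.6% of the 7, beside 12.1% of tested probe sets. The median log2 fold change of the 7 was 0.26, with 6 positive and 1 negative. Without adjustment, limma's p was under 0.05 for 3 of them, all higher in diabetic hearts, beside 9.54% of tested probe sets. They were Mafk, Nfe2l2 and Foxo3, and the groups overlapped at Foxo3 (log2 fold change 0.61 ± 0.25, SE, limma adjusted p = 0.226). Nfe2l1, the factor that restores proteasome genes when the enzyme is inhibited, overlapped between the groups (limma adjusted p = 0.506).

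Of 12 measured partner proteins of the proteasome none passed, and the median was -0.02. Adrm1, a ubiquitin receptor of the 19S particle, had the smallest p, with 643, 716.1 and 741 in diabetic hearts, against 431.8, 452.2 and 551.6 in normal hearts. All its diabetic values lay above the normal range (ratio of means 1.46, log2 fold change 0.54 ± 0.15, limma adjusted p = 0.0971). Next by p came Akirin2, which brings proteasomes into the nucleus (limma adjusted p = 0.208), and Txnl1, a thioredoxin-like protein bound to the 19S particle (limma adjusted p = 0.412). Pomp, the maturation factor of the core, had 5152.4, 5329.5 and 4802.6 in diabetic hearts, against 5254.7, 5109.4 and 5576.7 in normal hearts, which overlapped. None of 5 measured genes of the p97 unfoldase and its cofactors passed (median -0.08). The cofactor Nploc4 had the smallest p of these (log2 fold change 0.38, limma adjusted p = 0.203).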

How the data were processed

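Total RNA of 6 left ventricles (3 diabetic, 3 normal) was read on single-colour Affymetrix arrays. The authors deposited 1 signal intensity per probe set and array; per the labels, preparation was the manufacturer's standard, and the summarization software is not given in the sources used here. Trimmed means (2% off each end) were equal between arrays, so intensities were used as deposited. Groups came from the sample titles. Gene symbols came from the platform annotation, and all 43 family symbols matched a rat gene table (GRCr8, used for names, neighbours and promoters).

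After removal of 57 control probe sets, 9519 of 15866 were tested, those with a mean log2(signal + 16) over all 6 arrays above the 40th percentile. The comparison of the groups used limma 3.58.1 (R 4.3.3, two-sided, Benjamini-Hochberg over all tested probe sets, threshold 0.05). Fold changes on this scale understate the change of dim genes. The code was tested on simulated data. Genes to name were all members, with values in every array for those that passed, those without overlap and over 0.3 on the log2 scale, the catalytic and interferon-inducible ones, and the ends of each part. From the other lists, genes that passed were named, otherwise those with the smallest p. Some further genes of these lists, such as Nfe2l1, Pomp, Irf1 and Pecam1, were named outside this rule. Members and lists were chosen with earlier results of these data known. Alternatives were other pseudocounts, scalings, filters, variance priors, array weights, thresholds, a replicate block, leaving out each array, and every probe set of a gene. The filter on mean linear signals was chosen after seeing the data. matplotlib 3.10.9 drew the figures.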

Additional observations from a re-analysis of the deposited data

How the results depend on the processing

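The call for Psmd5 held under 9 of 17 alternatives, always as a rise. The count of risen family genes was 0 without the filter, with the replicate block and in 5 of the 6 fits that left out 1 array (0 to 1, the 1 being Psmd8 without diabetic 1), and 2 with a pseudocount of 64, an intensity trend, a filter at the 60th percentile, array weights or a threshold of 0.1. The count of fallen family genes was 0 in all fits but that with an intensity trend, where it was 1 (Psmb2). Over all probe sets, 143 rose and 131 fell. Without the filter these were 8 and 10, with a filter at the 60th percentile 218 and 219, and with an intensity trend 270 and 257. Leaving out 1 array gave 49 to 113 risen and 44 to 108 fallen. The filter changes the number of tests and leaving out an array the number of samples, and beyond that the cause was not tested.

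With 1 array left out, the median log2 fold change of the alpha subunits ran from -0.138 (without normal 1) to 0.0864, that of the activators and the inhibitor from -0.268 to -0.0659, and that of the core chaperones from -0.147 to -0.0373. The constitutive beta subunits stayed at -0.18 to -0.13. That of the inducible subunits ran from -0.305 to -0.0749, and that of the whole family from -0.116 to -0.0478. Of the 30 genes followed through the alternatives (19 of the family), only Psmb8 changed sign, between -0.27 and 0.14; the members closest to 0, such as Psmd9, were not among them. Replicate numbers were shared between the groups, but same-numbered hearts deviated together only weakly (r of 0.07, 0.01 and 0.02 for numbers 1 to 3), so they were not taken as pairs. With the replicate block limma's adjusted p of Psmd5 was 0.0856, that of Psmd8 0.0772, that of Mafk 0.0515 and that of Tie1 0.0518. Over all tested probe sets, 99 rose and 84 fell with this block. At 3 hearts a group, the standard errors in the family (0.13 to 0.30 on the log2 scale) limit what could be seen.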
